A study of Homo sapiens with 6 samples.

Results

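The genes described here encode the enzymes that oxidise, hydrolyse and conjugate drugs, steroids, fatty acids and other lipophilic compounds in the liver, together with their electron donors and sensors. The 47 members were chosen by name, with earlier results of these data known. The list holds 25 cytochrome P450s (CYP), 7 UDP-glucuronosyltransferases (UGT), 4 sulfotransferases (SULT), 3 electron donors with the epoxide hydrolase EPHX1, 4 other enzymes of oxidation, hydrolysis and acetylation, and 3 sensors. They were matched to the 57500 genes of the deposited counts through Ensembl identifiers, 1 for each symbol. Of the 47, 39 were expressed enough to be tested and 8 were not.

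RNA was sequenced from WT HepG2 cells, an established human hepatocarcinoma line, after 24 h with vehicle (3 libraries) or with glycine (10 mM, 3 libraries). The culture medium itself contains glycine, so vehicle cells were not free of it. HepG2 is a single tumour line, which limits it as a model of liver metabolism. The comparison addresses which transcripts glycine, examined by the study as a source of cyanide in cells, changes over that time.

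In the first phase of this metabolism, P450s in the endoplasmic reticulum insert an oxygen atom into the substrate with electrons passed on by POR and cytochrome b5, and hydrolases open epoxides and esters. In the second phase, UGTs attach glucuronic acid and SULTs attach sulfate, which makes the product soluble enough to leave the cell. The ligand-activated transcription factors AHR, NR1I2 (PXR) and NR1I3 (CAR) sense foreign compounds and switch on many of these enzymes, and cultured hepatoma lines are known for low levels of several adult liver P450s.

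The vehicle libraries held from 34960947 to 35861020 counts and the glycine libraries from 31795489 to 58815986, so that 1 count was worth between 0.017 and 0.0315 CPM, which is the count scaled to a common library size. The 9 hepatocyte markers, from albumin to HNF4A, were all expressed, and their summed level ran from 29594 to 33653 CPM with vehicle and from 25411 to 29108 CPM with glycine. Of these 9, 2 were called lower, APOA1 (log2 change -0.26) and TTR (-0.32). Among markers of other cell types, COL1A1 was called higher (log2 change 1.03, with means of 2.15 CPM with vehicle and 4.38 CPM with glycine), VWF lower (-1.18) and LYZ lower (-0.32). The summed level ran from 1.89 to 2.48 CPM with vehicle and from 3.93 to 5.11 CPM with glycine for the 3 fibroblast markers, and from 5.45 to 5.76 and from 4.60 to 5.26 CPM for the 3 endothelial ones. That of the 4 immune markers ran from 2124 to 2327 CPM with vehicle and from 1691 to 1850 CPM with glycine, and was almost wholly LYZ. CD3E was at 0 in every library and PTPRC had at most 3 counts. Whether these markers bear on the results was not tested. In bulk RNA, fewer cells expressing a gene cannot be told apart from less RNA per cell.

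Glycine changed 14 of the 39 tested members, or 35.9% (edgeR quasi-likelihood test, adjusted p under 0.05 after Benjamini-Hochberg adjustment over all tested genes), against 13.3% of all 15492 tested genes. Because the members were chosen with earlier results of these data known, the shares given here are descriptions and not a test of the set. CYP1A1, CYP2S1, CYP24A1, UGT2B10 and AHR rose, which is 5 members, while 6.71% of all genes were called higher. CYP3A5, CYP3A7, CYP4F2, CYP4F3, CYP4F11, CYP19A1, EPHX1, UGT2B4 and SULT2A1 fell, which is 9 members, while 6.54% of all genes were called lower. The vehicle and glycine libraries did not overlap for 16 tested members (41%), compared with 31.6% of all tested genes, and 18 members (46.2%) had an unadjusted p under 0.05, compared with 27.3%. The 14 called members were all among the 16, and the other two were CES2 and UGT2B7. Of the 16 members without overlap, 5 were higher and 11 lower with glycine, whereas of all such genes 2664 were higher and 2232 lower. The median log2 change was -0.05 over the tested members and 0.00 over all tested genes. The median absolute change was 0.21 for the members and 0.14 for all tested genes. Expression level differed little, with a median of the mean level of 19.97 CPM for members and 17.76 CPM for all. Of members with a mean of at least 10 CPM, 9 of 22 were called (15.2% of all genes in that range), and of those under 10 CPM, 5 of 17 (10.4%). At least 2-fold changes were seen in 2 of the 14 called members, CYP3A7 and UGT2B4, both lower, and in 223 of the 2053 genes called in all.

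**Figure D1:**
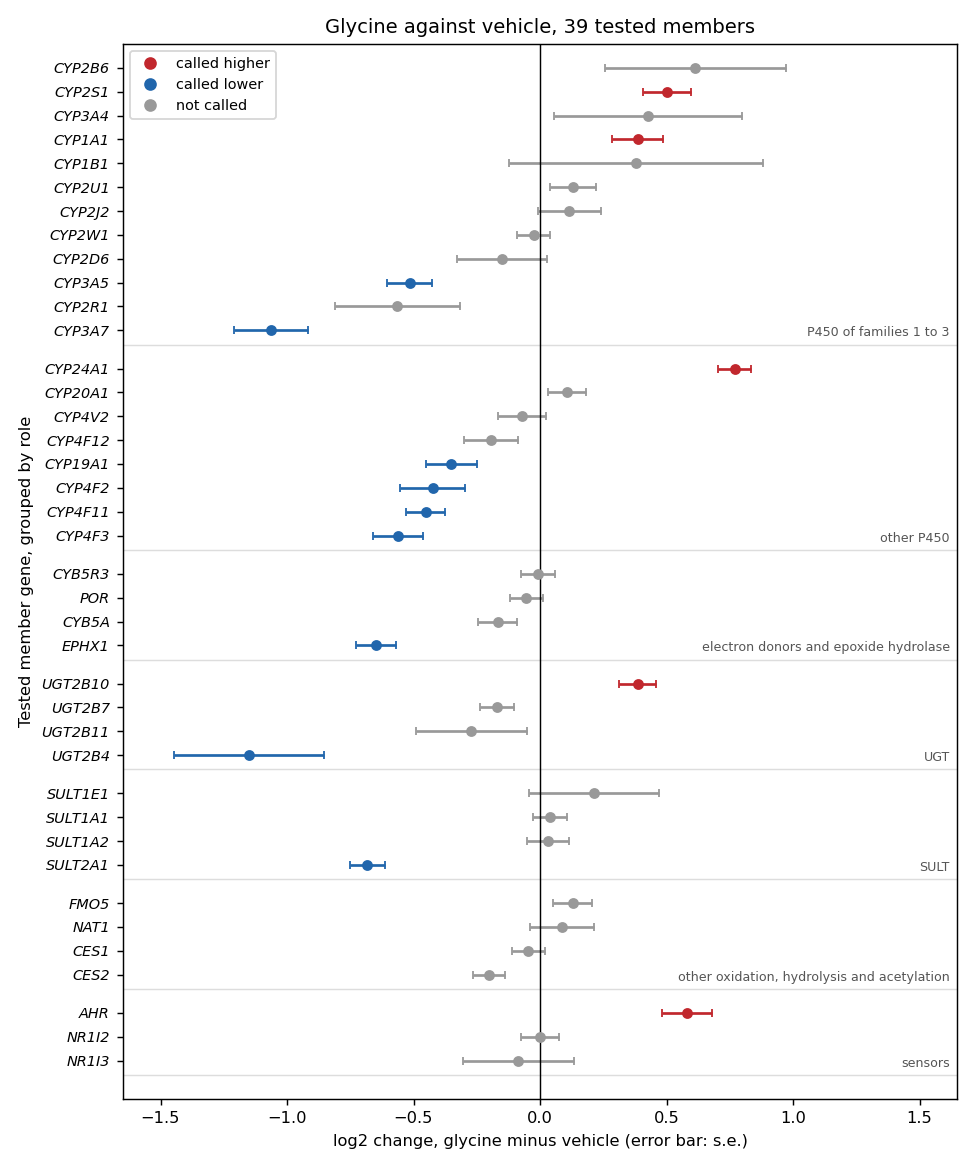
The log2 change (glycine minus vehicle) of each of the 39 tested members is plotted on the horizontal axis with its standard error from edgeR, grouped by role, with 3 libraries per group. The 5 members called higher are red, the 9 called lower blue and the 25 not called grey. The changes of the called members run from -1.15 for UGT2B4 to 0.77 for CYP24A1.

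Levels between genes were compared as CPM per kilobase of exon, in vehicle libraries (SD, n = 3). EPHX1 was the highest member, at 137 ± 11.2, followed by SULT2A1 at 70.9 ± 5.56. The electron donors POR, at 54.9 ± 2.62, and CYB5R3, at 54.6 ± 3.99, were next and did not differ from each other beyond their spread. CYP2W1, a P450 of fetal and tumour tissue, was the highest member P450, at 45.4 ± 2.17. It held 38.8% of the summed level of the 25 member P450s. CYP1A1 stood at 26.9 ± 2.04, UGT2B10 at 20.8 ± 1.83 and CYP24A1 at 12.2 ± 0.663. The major adult liver drug-oxidising form CYP3A4 was at 0.0906 ± 0.0338, below its relatives CYP3A5 (1.59 ± 0.0735) and CYP3A7 (1.15 ± 0.151).

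The summed level of the 25 member P450s was 112, 121 and 119 CPM per kilobase in the vehicle libraries. In the glycine libraries it was 134, 137 and 126. Every glycine library was above every vehicle library, and CYP1A1 and CYP24A1, which rose, were more abundant per length than any member P450 that fell. P450s that are not members were left out, so this sum does not describe all P450s. The summed level of the 7 member UGTs was 36.8, 40.0 and 34.5 with vehicle and 41.4, 40.9 and 41.9 with glycine, also without overlap. UGT2B10 made up 56.1% of that sum in vehicle cells. The sum leaves out UGT2A3, which is not a member. UGT2A3 had means of 19.4 with vehicle and 18.6 with glycine, and its groups overlapped, so the sum does not describe all UGTs. In contrast, the summed level of the 4 member SULTs was 92.4, 94.3 and 107 with vehicle and 71.0, 71.3 and 73.2 with glycine. All glycine libraries were lower. SULT2A1 made up 72.5% of that sum in vehicle cells. These sums are descriptions without a test.

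**Figure D2:**
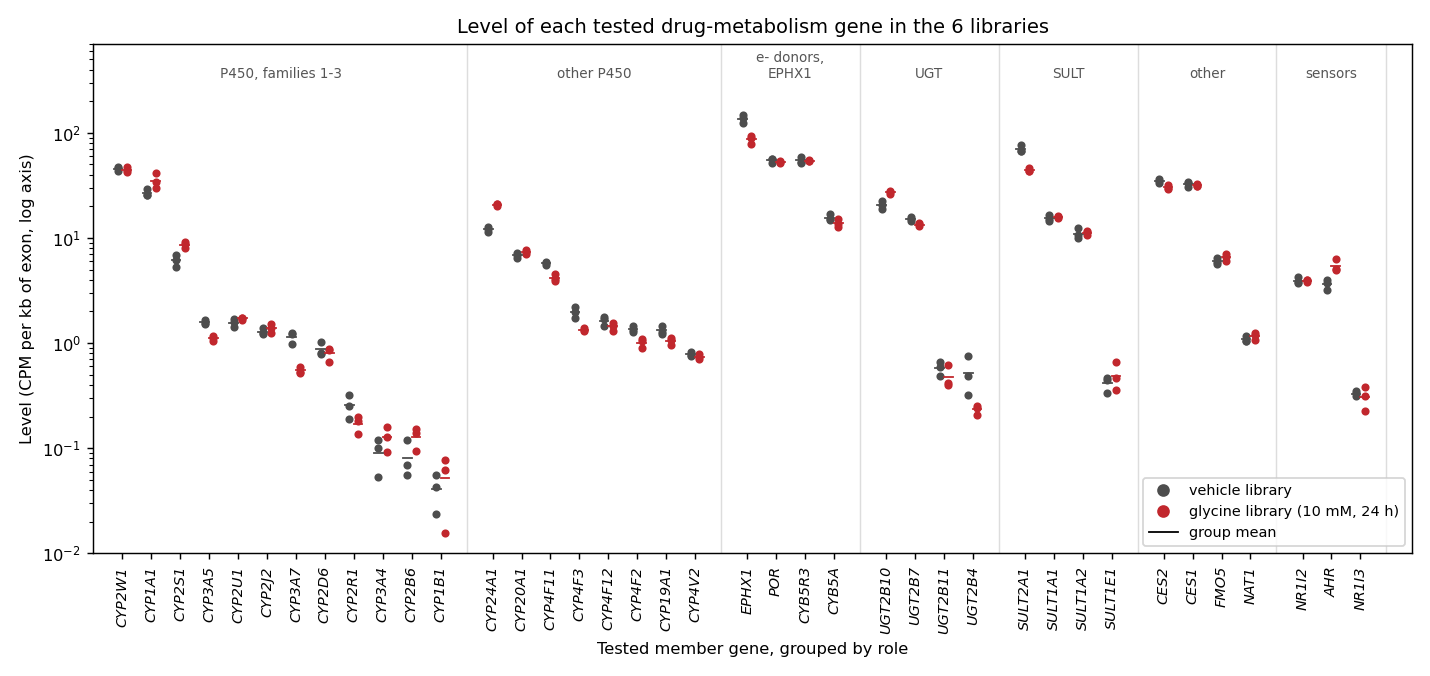
Each point is the level of a tested member in 1 library, in CPM per kilobase of exon on a log axis, with vehicle in grey, glycine in red and a short line at each group mean. Members are ordered within each role by their vehicle level. EPHX1 (137 with vehicle, 87.1 with glycine) and SULT2A1 (70.9 and 44.2) head their groups, while CYP3A4, CYP2B6 and CYP1B1 have the lowest vehicle means of the tested members.

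Among the sensors, AHR (ENSG00000106546, chromosome 7, 17298622 to 17346152 in GRCh38), the receptor for dioxins and polycyclic aromatic hydrocarbons, rose. It was at 26.5, 21.5 and 24.8 CPM with vehicle and at 34.1, 33.2 and 41.6 CPM with glycine. All glycine libraries were above all vehicle libraries, and glycine replicate 3 was the highest. The log2 change was 0.58 ± 0.10 (s.e., edgeR adjusted p = 0.00171), an increase of 49.6%. Other annotated genes, 1 on each strand, overlap 39.2% of the exon length of AHR, and the one on its own strand, which overlaps 35.6%, had 0 counts in all 6 libraries. The treatment of reads that fall in both genes was not given, so this 0 does not show that AHR lost no reads. NR1I2, the pregnane X receptor, was at 22.7, 20.3 and 20.4 CPM with vehicle and 21.5, 20.4 and 21.5 with glycine. The groups overlapped, and the log2 change was -0.0005 ± 0.07 (edgeR adjusted p = 0.998). NR1I3, the constitutive androstane receptor, was low, between 0.752 and 1.26 CPM in all libraries, and was not called (log2 change -0.09 ± 0.22, edgeR adjusted p = 0.845).

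CYP1A1 (ENSG00000140465, chromosome 15, 74719542 to 74725610) oxidises polycyclic aromatic hydrocarbons and is the textbook target of AHR. Its level was 88.5, 101 and 88.3 CPM with vehicle and 117, 143 and 103 CPM with glycine. The groups did not overlap, but glycine replicate 3 lay close to vehicle replicate 2, and glycine replicate 2 stood highest. The log2 change was 0.39 ± 0.10 (edgeR adjusted p = 0.024). This call depended on single libraries: the edgeR adjusted p was 0.0913 without glycine replicate 2, where the log2 change was 0.25, then 0.0976 without vehicle replicate 1 and 0.0533 without vehicle replicate 3. CYP2S1 (ENSG00000167600, chromosome 19, 41193049 to 41207539), a P450 of epithelia that AHR ligands are also known to induce, was at 15.2, 19.7 and 17.8 CPM with vehicle and 26.6, 25.2 and 22.9 CPM with glycine. All glycine libraries were higher, and the log2 change was 0.50 ± 0.09 (edgeR adjusted p = 0.0038).

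Other genes tied to AHR did not pass the test. CYP1B1, a further P450 inducible through AHR, had between 4 and 27 counts per library and overlapping groups (log2 change 0.38 ± 0.50, edgeR adjusted p = 0.678). CYP1A2, the neighbour of CYP1A1 in the genome, was below the filter, with 47 counts over the 6 libraries. The log2 changes were -0.02 for ARNT, the dimer partner of AHR, 0.11 for its repressor AHRR and -0.15 for the AHR target TIPARP, with edgeR adjusted p of 0.863, 0.694 and 0.27.

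The sequence upstream of CYP1A1 is shown because AHR and its partner are known to bind a short core, GCGTG. The bases, from RefSeq on GRCh38.p14, are the 250 before the start site on the minus strand, chr15:74725529-74725778, written 5′ to 3′ along the gene, and capitals mark GCGTG and the TATA box letters TATAAA.
CYP1A1: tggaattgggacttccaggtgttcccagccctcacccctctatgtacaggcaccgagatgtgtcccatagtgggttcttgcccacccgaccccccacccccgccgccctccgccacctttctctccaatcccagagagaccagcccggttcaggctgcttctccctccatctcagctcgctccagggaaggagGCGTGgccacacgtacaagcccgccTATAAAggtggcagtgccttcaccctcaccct
GCGTG begins 57 bases and TATAAA 32 bases upstream of the start. Promoter windows of 300 bases (250 before to 50 after a start) were found for 36 of the 47 members, 54 windows in all, and each motif was searched on both strands. GCGTG was in 13 of the 54 windows (24.1%) and in 36.5% of all 35116 windows, so it was no more frequent among the members. The CYP2S1 window, whose gene also rose, does not hold these letters, while that of CYP2W1, which was not called, holds them at 144 and 50 bases upstream on the other strand. TATAAA was in 15 of the 54 windows (27.8%) and in 11.5% of all windows. A match is a description of letters and not a bound site.

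The CYP3A genes sit together on chromosome 7, share much of their sequence and gave different calls. Of the 3 members, 2 were called lower, against 6.54% of all tested genes. CYP3A7 (ENSG00000160870, 99705037 to 99735196), the form of fetal liver, was at 3.45, 4.36 and 4.40 CPM with vehicle and 1.85, 1.90 and 2.08 CPM with glycine. The groups lay far apart, and the log2 change was -1.06 ± 0.15 (edgeR adjusted p = 0.000356), a change of -52.2%. CYP3A5 (ENSG00000106258, 99648194 to 99679998), a form expressed in liver and gut of some adults, was at 10.3, 11.2 and 10.5 CPM with vehicle and 7.80, 7.11 and 7.56 CPM with glycine. It fell by 0.52 ± 0.09 on the log2 scale (edgeR adjusted p = 0.00211), without overlap. CYP3A4, in contrast, had 11, 13 and 6 counts with vehicle and 16, 17 and 17 with glycine. In CPM these groups overlapped (log2 change 0.43 ± 0.37, edgeR adjusted p = 0.506), and the difference between CYP3A4 and its relatives was not tested. CYP3A43, a neighbour that is not a member, had 9 to 21 counts per library. Its CPM was lower in all glycine libraries, but it was not called (log2 change -0.74 ± 0.30, edgeR adjusted p = 0.13). A readthrough gene covers 42.7% of the exon length of CYP3A7 and had at most 8 counts per library. Reads could be split between these near-identical genes, so their values may be less certain than their errors show.

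The upstream sequences of these 3 neighbours are shown together because the receptors NR1I2 and NR1I3 act on CYP3A promoters through pairs of half-sites. They are 250 bases each from RefSeq on GRCh38.p14, minus strand, at chr7:99784185-99784434 for CYP3A4, chr7:99679997-99680246 for CYP3A5 and chr7:99735197-99735446 for CYP3A7. Capitals mark the half-site letters TGAACT as well as the second half-site AGGTCA, along with the TATA box letters TATAAA.
CYP3A4: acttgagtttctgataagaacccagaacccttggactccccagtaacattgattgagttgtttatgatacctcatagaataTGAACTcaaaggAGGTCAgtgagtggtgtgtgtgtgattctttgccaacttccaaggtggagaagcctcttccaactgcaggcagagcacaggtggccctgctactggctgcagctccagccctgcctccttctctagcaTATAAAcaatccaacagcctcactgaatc
CYP3A5: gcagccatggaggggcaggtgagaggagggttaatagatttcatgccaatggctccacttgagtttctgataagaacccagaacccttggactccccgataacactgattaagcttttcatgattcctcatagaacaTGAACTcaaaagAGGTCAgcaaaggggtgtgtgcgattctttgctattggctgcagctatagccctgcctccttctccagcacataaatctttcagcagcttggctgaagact
CYP3A7: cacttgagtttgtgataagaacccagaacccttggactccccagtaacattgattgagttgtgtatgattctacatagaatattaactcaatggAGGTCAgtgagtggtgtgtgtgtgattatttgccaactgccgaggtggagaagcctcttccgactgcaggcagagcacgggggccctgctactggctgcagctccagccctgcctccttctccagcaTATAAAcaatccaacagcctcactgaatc
CYP3A4 has TGAACT at 169 and AGGTCA at 157 bases upstream, and CYP3A5 has them at 113 and 101, with 6 bases between the motifs in both. In CYP3A7, AGGTCA lies 156 bases upstream and the exact letters TGAACT are not in the window. TATAAA lies 29 bases upstream in CYP3A4 and CYP3A7 and is not in the CYP3A5 window. On either strand, TGAACT was in 9 of the 54 member windows (16.7%) and in 10.4% of all windows. AGGTCA was in 13 of the 54 (24.1%) and in 13.8% of all windows. These shares were not tested, and no base of a member window was shared by matches of different motifs.

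The other tested P450s of families 1 to 3 were not called. CYP2W1 was at 119, 128 and 130 CPM with vehicle and 130, 118 and 124 CPM with glycine, so the groups overlapped fully (log2 change -0.03 ± 0.06, edgeR adjusted p = 0.845). The arachidonic acid epoxygenase CYP2J2 (log2 change 0.12), the fatty acid hydroxylase CYP2U1 (0.13) and CYP2D6 (-0.15), which oxidises many basic drugs, differed little. CYP2B6, the classical target of NR1I3, had between 7 and 23 counts per library and was not called (log2 change 0.61 ± 0.36, edgeR adjusted p = 0.299). The vitamin D 25-hydroxylase CYP2R1 had a log2 change of -0.56 ± 0.25 (edgeR adjusted p = 0.156), and its groups overlapped. In this family group, 2 members rose, 2 fell, 8 were not called and 4 were not tested. The called share was 33.3% of the 12 tested, against 13.3% of all tested genes.

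The largest rise of any member was that of CYP24A1 (ENSG00000019186, chromosome 20, 54153449 to 54173973), the 24-hydroxylase that inactivates vitamin D. It was at 48.3, 45.6 and 50.9 CPM with vehicle and at 79.4, 83.2 and 84.1 CPM with glycine. The groups were far apart, with little spread within each, and the log2 change was 0.77 ± 0.06 (edgeR adjusted p = 6.15e-06), an increase of 70.4%. Its known inducer, the vitamin D receptor VDR, was at 0.835 to 1.23 CPM with vehicle and 1.16 to 1.45 CPM with glycine, which overlapped (log2 change 0.31 ± 0.21, edgeR adjusted p = 0.38). CYP27B1, which makes the active hormone, differed by -0.44 ± 0.18 on the log2 scale and was not called (edgeR adjusted p = 0.136).

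The CYP4F genes form a cluster on chromosome 19 whose enzymes hydroxylate the far end of fatty acids, eicosanoids and vitamin K. Of the 4 members, 3 were called lower, against 6.54% of all tested genes. CYP4F3 (ENSG00000186529, 15615617 to 15662825), which inactivates leukotriene B4, was at 12.9, 10.3 and 11.7 CPM with vehicle and 7.64, 7.81 and 8.15 CPM with glycine. CYP4F11 (ENSG00000171903, 15912367 to 15934867) was at 22.1, 23.4 and 23.6 CPM with vehicle and 18.3, 16.6 and 15.8 CPM with glycine. Neither gene overlapped between groups, and the log2 changes were -0.56 ± 0.10 for CYP4F3 and -0.45 ± 0.08 for CYP4F11 (edgeR adjusted p = 0.00237 and 0.00203). CYP4F2 (ENSG00000186115, 15878023 to 15898120), an enzyme of vitamin K and fatty acid hydroxylation, was at 4.02, 4.16 and 4.53 CPM with vehicle and 3.41, 3.28 and 2.80 CPM with glycine. All of its glycine libraries were lower, but the call was marginal (log2 change -0.42 ± 0.13, edgeR adjusted p = 0.0444). It was lost in each of the 6 fits that left out a library, with an edgeR adjusted p of 0.0645, 0.0679 and 0.118 without vehicle replicates 1, 2 and 3 and of 0.0636, 0.0925 and 0.148 without glycine replicates 1, 2 and 3. CYP4F12 had overlapping groups and was not called (log2 change -0.19 ± 0.11, edgeR adjusted p = 0.261). Whether reads were shared between these paralogs was not tested.

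CYP19A1 (ENSG00000137869, chromosome 15, 51208057 to 51338610), the aromatase that turns androgens into oestrogens, was at 10.9, 12.4 and 10.3 CPM with vehicle and 9.46, 8.07 and 8.96 CPM with glycine. The groups did not overlap, although the lowest vehicle and the highest glycine library were close, and the log2 change was -0.35 ± 0.10 (edgeR adjusted p = 0.0352). The call was lost without vehicle replicate 1 (edgeR adjusted p = 0.0574), vehicle replicate 2 (0.111), glycine replicate 2 (0.141) or glycine replicate 3 (0.0712). The fatty acid hydroxylase CYP4V2 (log2 change -0.07) and the orphan P450 CYP20A1 (0.11) were not called.

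The electron donors were not called. POR, the reductase that hands electrons from NADPH to every microsomal P450, was at 318, 342 and 348 CPM with vehicle and 322, 332 and 316 CPM with glycine, which overlapped (log2 change -0.05 ± 0.06, edgeR adjusted p = 0.642). CYB5R3, which reduces cytochrome b5, had a log2 change of -0.01, and cytochrome b5 itself, CYB5A, one of -0.17 (edgeR adjusted p = 0.954 and 0.177). EPHX1 (ENSG00000143819, chromosome 1, 225810092 to 225845563), which opens the epoxides that P450s make, was at 313, 369 and 346 CPM with vehicle and at 225, 232 and 199 CPM with glycine. The groups were well separated. EPHX1, the most abundant member per length, fell by 0.65 ± 0.08 on the log2 scale (edgeR adjusted p = 0.000137), a change of -36.2%.

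**Figure D3:**
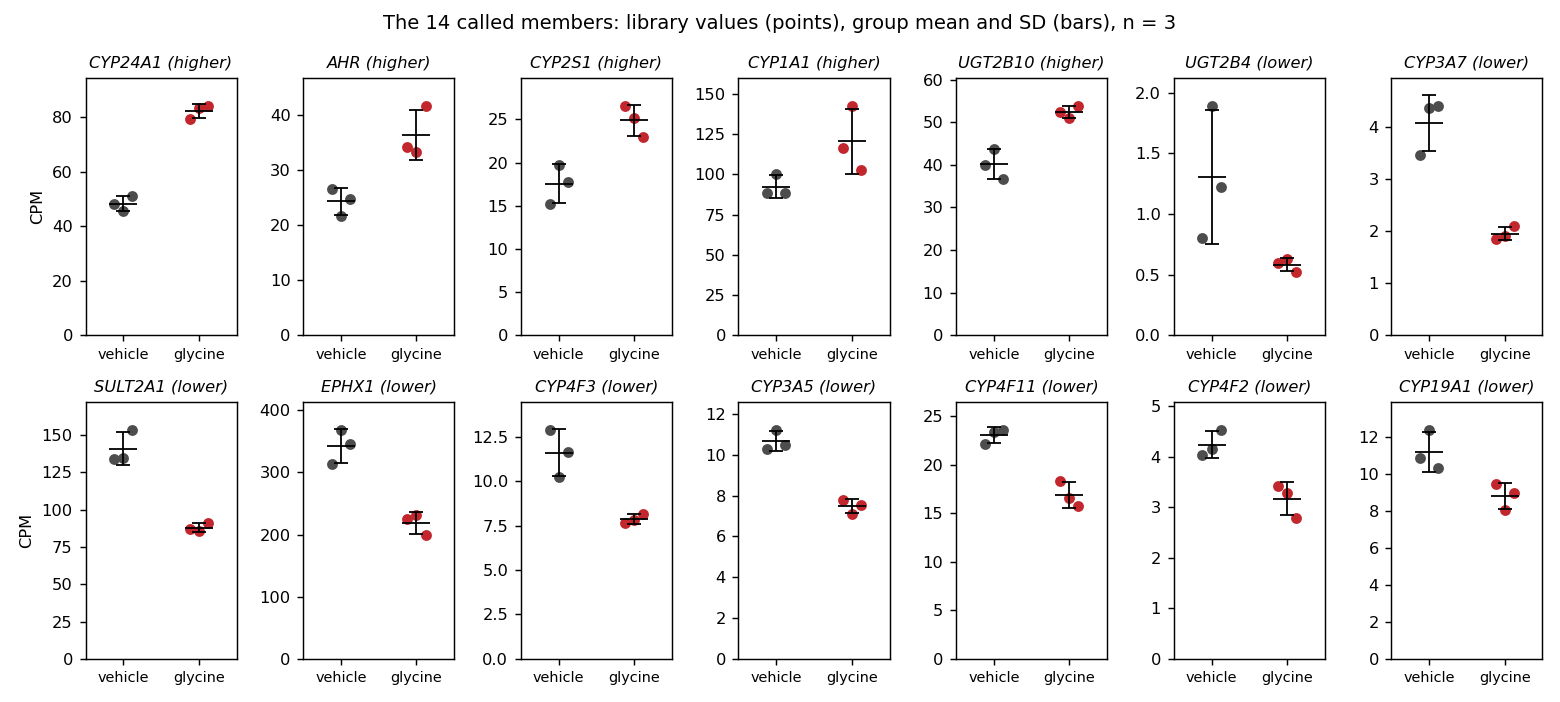
Each panel shows 1 of the 14 called members, with its CPM in the 3 vehicle (grey) and 3 glycine (red) libraries as points, and the group mean and SD as black bars, on a linear axis from 0. The groups do not overlap in any panel. CYP24A1 goes from 45.6 to 50.9 CPM with vehicle to between 79.4 and 84.1 CPM with glycine, and the vehicle libraries of UGT2B4 spread from 0.799 to 1.89 CPM.

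In the glucuronidation group, UGT2B10 and UGT2B4 went opposite ways. UGT2B10 (ENSG00000109181, chromosome 4, 68815993 to 68831196), which conjugates nicotine and other amines, was at 39.9, 43.8 and 36.7 CPM with vehicle and 52.5, 51.0 and 53.9 CPM with glycine. All glycine libraries were higher (log2 change 0.39 ± 0.07, edgeR adjusted p = 0.00379). UGT2B4 (ENSG00000156096, chromosome 4, 69480165 to 69526014), a bile acid and steroid conjugating form, was much lower in abundance, with 28, 66 and 44 counts with vehicle and 19, 37 and 22 with glycine. In CPM, every glycine library was lower, at 0.521 to 0.632 CPM against 0.799 to 1.89 CPM. The log2 change was -1.15 ± 0.30 (edgeR adjusted p = 0.0214), but it rested on few counts and on vehicle replicate 2: without that library it was -0.79 (edgeR adjusted p = 0.0873). The call was also lost without glycine replicate 2 (0.0539) or glycine replicate 3 (0.0676), and a filter at a mean of 1 CPM removed the gene.

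UGT2B7, the main UGT for morphine and many other drugs, was at 34.1, 35.8 and 32.4 CPM with vehicle and 30.4, 31.0 and 29.4 CPM with glycine. The libraries did not overlap, yet the difference did not pass the test (log2 change -0.17 ± 0.07, edgeR adjusted p = 0.116). UGT2B11 was at 0.940 to 1.54 CPM with overlapping groups. Reads of the UGT2B family could be shared between paralogs.

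In the sulfation group, SULT2A1 (ENSG00000105398, chromosome 19, 47870466 to 47886397), which sulfates dehydroepiandrosterone and bile acids, fell. It was at 134, 135 and 154 CPM with vehicle and 86.7, 85.4 and 91.1 CPM with glycine. The lowest vehicle library stood well above the highest glycine library, and the log2 change of -0.68 ± 0.07 (edgeR adjusted p = 2.7e-05) had the smallest adjusted p of the members that fell. The phenol sulfotransferase SULT1A1 was at 129, 136 and 148 CPM with vehicle and 139, 144 and 142 CPM with glycine. Its groups overlapped (log2 change 0.04 ± 0.07, edgeR adjusted p = 0.753), as did those of its close paralog SULT1A2 (0.03) and of the oestrogen sulfotransferase SULT1E1 (0.21). A direct test of SULT2A1 against SULT1A1 was not run.

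The sequence upstream of SULT2A1 is shown for the same half-sites as in the CYP3A genes. It is the 250 bases before the start on the minus strand of GRCh38.p14 in RefSeq, chr19:47886316-47886565, with AGTTCA, the reverse complement of TGAACT, in capitals.
SULT2A1: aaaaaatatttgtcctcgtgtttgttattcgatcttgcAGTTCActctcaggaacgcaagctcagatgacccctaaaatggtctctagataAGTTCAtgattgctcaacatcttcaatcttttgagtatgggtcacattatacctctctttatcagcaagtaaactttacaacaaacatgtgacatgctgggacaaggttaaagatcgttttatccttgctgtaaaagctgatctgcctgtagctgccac
The letters occur at 212 and 159 bases upstream on the strand opposite to the gene, and AGGTCA and TATAAA are not in the window. GCGTG occurs 37 bases downstream of the start, on the opposite strand.

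Of the other enzymes of oxidation, hydrolysis and acetylation, 0 of 4 were called by edgeR, against 13.3% of all tested genes. CES2, a carboxylesterase that activates prodrugs such as irinotecan, was at 185, 177 and 197 CPM with vehicle and 161, 169 and 157 CPM with glycine. Its libraries did not overlap and it missed the threshold narrowly (log2 change -0.20 ± 0.06, edgeR adjusted p = 0.0554). It passed with DESeq2 (adjusted p = 0.0321) and in an edgeR fit without vehicle replicate 2 (0.0383), and other genes overlap 10.9% of its exon length. The carboxylesterase CES1 (log2 change -0.05), the flavin monooxygenase FMO5 (0.13) and the acetyltransferase NAT1 (0.09) were not called, and an unadjusted p under 0.05 was reached by CES2 alone in this group.

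The 8 members that were not tested were CYP2C8, CYP2C18, CYP2C19, CYP2E1, CYP26A1, UGT1A1, UGT1A6 and UGT2B15. CYP2E1, the ethanol-oxidising P450, had 5, 4 and 2 counts with vehicle and 0, 2 and 1 with glycine. UGT1A1, which conjugates bilirubin, had 4, 4 and 12 counts with vehicle and 5, 15 and 9 with glycine. The retinoic acid hydroxylase CYP26A1 had 1 to 3 counts per library, UGT1A6 had 2 to 6 and UGT2B15 had 1 to 4. CYP2C8 had at most 1 count and CYP2C18 at most 3. CYP2C19 had 0 counts in all libraries, which allows up to 3 counts, or 0.051 to 0.0944 CPM, in a library, a limit that covers counting error only. The edgeR expression filter removed these 8, so a difference in them was not assessed, and a fit without that filter, which took in 46 members, called no further member. Other genes overlap 49.9% of the exon length of UGT1A1, 64.4% of that of UGT1A6, 52.1% for CYP2C19, 38.5% for CYP2C18 and 25.4% for CYP2E1. The limit for CYP2C19 does not cover reads lost to that overlap.

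The rest of the pathway was read from a list of 89 further genes, of which 47 were tested. Of these, 3 were called higher and 4 lower (14.9%, against 13.3% of all tested genes), and 15 (31.9%) had no overlap between groups, against 31.6% of all. The median log2 change was -0.03. Among other oxidising and hydrolysing enzymes, the lactonase PON2 rose (133, 118 and 132 CPM with vehicle, 150, 170 and 171 CPM with glycine), and the log2 change was 0.36 ± 0.07 (edgeR adjusted p = 0.00597). The aldehyde oxidase AOX1 and the monoamine oxidase MAOA rose by 0.29 and 0.34 on the log2 scale (edgeR adjusted p = 0.0257 and 0.027). For AOX1 the adjusted p was 0.0721 without vehicle replicate 1, 0.0738 without vehicle replicate 3, 0.135 without glycine replicate 1 and 0.0598 without glycine replicate 2. That of MAOA was 0.109 without vehicle replicate 1, 0.0717 without vehicle replicate 3, 0.136 without glycine replicate 1 and 0.0629 without glycine replicate 3.

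Of the 7 genes that supply the donor molecules for conjugation, 2 (28.6%) were called, both lower. Of all tested genes, 13.3% were called in either direction and 6.54% lower. UGDH (ENSG00000109814), which makes the UDP-glucuronic acid that UGTs use, was at 599, 622 and 578 CPM with vehicle and 490, 412 and 391 CPM with glycine. All glycine libraries were lower (log2 change -0.48 ± 0.08, edgeR adjusted p = 0.0024). PAPSS1 (ENSG00000138801), which makes the activated sulfate that SULTs use, was at 126, 136 and 133 CPM with vehicle and 95.3, 94.3 and 98.3 CPM with glycine. Its groups were clearly apart (log2 change -0.46 ± 0.06, edgeR adjusted p = 0.000247). UGP2, which supplies UDP-glucose to UGDH, was not called (log2 change -0.08, edgeR adjusted p = 0.428).

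Of the 14 tested partners of the sensors, 2 fell, and the 14.3% called was near the 13.3% of all tested genes. RXRA, the dimer partner of NR1I2 and NR1I3, was at 153, 169 and 155 CPM with vehicle and 135, 135 and 124 CPM with glycine (log2 change -0.28 ± 0.07, edgeR adjusted p = 0.0148). This call was lost without glycine replicate 3 (0.0691). PPARA, a nuclear receptor that senses fatty acids, was at 61.8, 58.6 and 46.5 CPM with vehicle and 42.4, 39.7 and 43.2 CPM with glycine (log2 change -0.41 ± 0.09, edgeR adjusted p = 0.0104). HNF4A, which maintains hepatocyte gene expression, had no overlap between groups but was not called (log2 change -0.20, edgeR adjusted p = 0.109). Of the 7 electron transfer genes tested, PGRMC1, a heme protein that binds P450s, had the smallest p (log2 change -0.19, edgeR adjusted p = 0.0787).

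The called members were followed through 17 other fits. CYP3A7, CYP4F3, CYP24A1, EPHX1, SULT2A1 and AHR were called in all 17. Their log2 changes ran down to -1.18 for CYP3A7, from -0.64 to -0.49 for CYP4F3, from 0.73 to 0.81 for CYP24A1, from -0.72 to -0.59 for EPHX1, from -0.73 to -0.62 for SULT2A1 and from 0.46 to 0.64 for AHR. CYP2S1, CYP3A5, CYP4F11 and UGT2B10 lost the call in 1 fit each, the test against a 1.2-fold change. No called member changed sign in any fit.

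**Figure D4:**
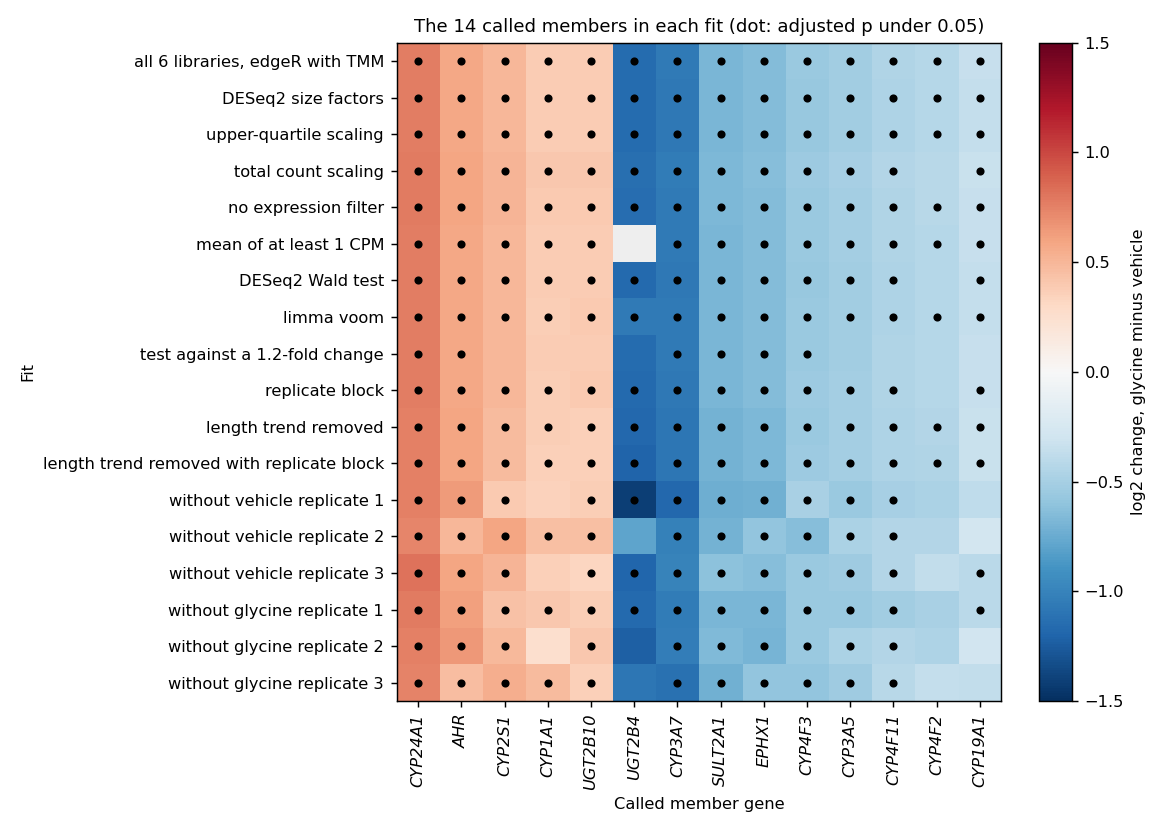
Colour gives the log2 change (glycine minus vehicle) of each of the 14 called members, in columns, in each fit, in rows, and a dot marks an adjusted p under 0.05. CYP24A1, AHR, CYP3A7, SULT2A1, EPHX1 and CYP4F3 have a dot in every row, and CYP4F2 has none in the 6 rows that leave out a library. The grey cell is UGT2B4, which a filter at a mean of 1 CPM removed.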

How the data were processed

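RNA-seq of HepG2 cells was compared between vehicle and glycine (10 mM, 24 h), with 3 libraries per group assigned from their labels. The deposited files hold raw read counts per gene. Per the labels, the submitters' processing notes name Trimmomatic 0.36, STAR 2.5.2b, featureCounts of Subread 1.5.2 and GRCh38. The strand setting, the treatment of reads in overlapping genes and the annotation release were not given in the sources used here, so counts of overlapping genes and close paralogs are uncertain. Of 57500 genes, 56898 were in GENCODE 29, which gave symbols, and 54784 matched its start and end.

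In R 4.3.3, edgeR 4.0.16 (glmQLFit and glmQLFTest, its quasi-likelihood functions) compared the groups two-sided, with TMM scaling, the default expression filter (minimum count 10, minimum total 15) and group as the single term. Benjamini-Hochberg adjustment covered 15492 genes and calls needed an adjusted p under 0.05. The s.e. is the log2 change divided by the square root of F. CPM used TMM-scaled library sizes. The worth of 1 or 3 counts used raw totals. Levels per kilobase used the exon length in the files. Total counts ran from 31795489 to 58815986, and counting limits cover counting error only. The paper describes its replicates as independent experiments on different days. For cell-based assays, it states that each run held control and treated samples. Vehicle and glycine libraries may thus pair by day. The labels do not give the day, and the main fit was unpaired. Counts of replicates differed by 7.61 to 29.6 chi-square units per degree of freedom, so none was a duplicate. The fit was tested on simulated data.

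The members, lists and tests were chosen with earlier results of these data known. Members past the threshold, the best-expressed uncalled member of most roles and the sensors are given with values in each library, the others by group. Genes of the wider list are named when past the threshold. ARNT, AHRR, TIPARP, CYP1A2, CYP3A43, UGT2A3, VDR, CYP27B1, UGP2, HNF4A and PGRMC1 were chosen after their values were seen. GCGTG was the planned motif, and the TATA box and half-site motifs were chosen later. Alternatives were DESeq2 size factors, upper-quartile and total count scaling, no filter, a mean of at least 1 CPM, DESeq2 1.42.0, voom in limma 3.58.1, glmTreat at 1.2-fold, a replicate block, removal of a length trend by loess (span 0.5), both together, and leaving out each library.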

Additional observations from a re-analysis of the deposited data

How the results depend on the processing

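Calls depended most on the size of change tested and on the number of libraries. The test against a 1.2-fold change, which asks for a larger change, called 235 genes higher and 246 lower, 2 members higher and 4 lower, and 0 other pathway genes higher and 1 lower. Across the fits that left out a library, which have fewer samples, genes called higher ran from 587 to 926 (590 for vehicle replicate 1 left out, and 594, 617 and 587 for glycine replicates 1, 2 and 3), genes called lower from 655 (glycine replicate 2 left out) to 1010, members called higher from 4 to 5, members called lower from 6 to 8, and other pathway genes called higher from 1 to 3. Over all other fits these counts stayed within 1.5 times, and calls that single libraries decide are given with the genes. CYP4F2 was also not called with total count scaling (0.0523) or DESeq2 (0.0668), and CES2 was called with the length trend removed (0.0487). Of the values of single genes under the alternatives, 716 kept direction and side of the threshold, 42 lost the call, 3 gained it and 16 changed sign.

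The sign changes were all in uncalled members. Across the fits that left out a library, log2 changes ran from -0.16 (without glycine replicate 2) to 0.78 for CYP1B1, from -0.0754 to 0.0105 (without glycine replicate 2) for CYP2W1, from -0.0582 to 0.0525 (without vehicle replicate 3) for CYB5R3, from -0.0172 (without vehicle replicate 1) to 0.0954 for SULT1A1, and from -0.0469 (without vehicle replicate 1) to 0.12 for SULT1A2. They ran from -0.0733 (without glycine replicate 3) to 0.441 for SULT1E1, from -0.0271 to 0.0423 (without vehicle replicate 1) for NR1I2 and from -0.256 to 0.0463 (without glycine replicate 1) for NR1I3. Leaving out glycine replicate 2 also gave -0.0026 for SULT1A2 and 0.0277 for NR1I2. Total count scaling gave 0.0054 for CYB5R3 and 0.0136 for NR1I2, which was at 0.0046 with no filter and 0.0006 with the length trend removed. The cause was not tested.

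The deviations of same-numbered libraries correlated at -0.058, -0.027 and -0.003, so the numbers were not taken to pair the libraries. Differently numbered pairs were higher, at 0.214 for vehicle 1 with glycine 3, 0.214 for vehicle 2 with glycine 1 and 0.18 for vehicle 3 with glycine 2. All remaining pairs were negative. Whether those libraries shared an experimental day or another batch was not tested, and no fit with those pairs was run. The replicate block follows the numbers, so it does not cover those pairs. With a replicate block, 866 genes were called higher and 918 lower, 5 members higher and 8 lower, CYP4F2 was not called (0.0623) and NR1I2 was at 0.0027. With the length trend removed as well, NR1I2 was at 0.0035, and 1191 genes were called higher and 1250 lower. Total count scaling moved the share of calls that were higher from 50.7% to 55.9%.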
